A study of Mus musculus with 8 samples.

Results

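The genes described here build the junctions between cristae and the inner boundary membrane of mitochondria and the prohibitin scaffold of the inner membrane. They were listed by name under a rule that uses no measured value, though with earlier results of these data known, and are 10 of the 35976 genes in the table: Immt, Chchd3, Chchd6, Apool and Apoo of the mitochondrial contact site and cristae organising system (MICOS), Samm50, Mtx1 and Mtx2 of the outer membrane, and the prohibitins Phb and Phb2. RNA of whole mouse liver was sequenced in 5 CTRL libraries and 3 OPA1_LKO libraries. The OPA1_LKO livers carried a knockout of Opa1 in hepatocytes, the titles give the CTRL livers as wild type, and both groups had the treatment High Fat Diet. The Cre driver, the deleted exons, the age and sex of the mice and whether each library is a separate animal are not named in the labels, so p-values measure the spread between these libraries, which may be technical.

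MICOS is a large complex of the inner membrane that holds the narrow necks of the cristae and ties them to the outer membrane. Its core protein, mitofilin, is encoded by Immt and meets the outer membrane protein SAMM50 through the protein of Chchd3, and SAMM50 sits with the metaxins in the machinery that inserts beta-barrel proteins. The prohibitins form ring-shaped scaffolds in the inner membrane that gather proteases and lipids, and OPA1, the fusion GTPase removed here, shapes the cristae from inside. Hepatocytes are rich in mitochondria, and most of the RNA in a whole-liver library comes from them.

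The libraries held 16076404 to 20471271 estimated reads on genes. The Opa1 level was 39.9, 51.9, 44.0, 57.6 and 46.9 CPM (read counts scaled to a fixed total by TMM library factors) in CTRL replicates 1 to 5, against 24.7, 34.4 and 34.0 CPM in OPA1_LKO replicates 1 to 3, so the groups did not overlap. CTRL replicate 1 stood apart from the other libraries on the second principal component, and Apoe, an apolipoprotein gene that hepatocytes express strongly, had 134 CPM there and 20759 to 33179.5 CPM elsewhere. Without this library 0 of 10 members were called by edgeR, where all genes called went from 846 to 1701 and partner genes called from 0 to 3. Hepatocyte markers summed to 62761 to 109680 CPM in CTRL and 68854 to 85892 CPM in OPA1_LKO, with 0 of 5 called. Of 5 bile duct markers, Krt7, Sox9 and Spp1 were higher in OPA1_LKO by the edgeR test used below, and the list summed to 17.5 to 63.2 CPM in CTRL and 139 to 202 CPM in OPA1_LKO. Most of that sum was Spp1, with means of 22.7 and 154 CPM, while Krt19 (5.004 and 3.52 CPM) and Epcam (3.91 and 7.63 CPM) were not called. In CTRL the SD exceeded the mean for both, at 9.68 CPM for Krt19 and 7.19 CPM for Epcam. Their CTRL means therefore say little of a typical CTRL library. The stellate cell list spanned 182 to 266 and 240 to 470 CPM, and the Kupffer cell list 140 to 736 and 126 to 181 CPM, with 0 of 5 called in each. The Kupffer cell genes Cd5l (129 ± 125 CPM) and Cd68 (23.7 ± 29.8 CPM) also varied widely within CTRL (mean and SD). The part of other cell types in the levels below was not tested, and fewer cells of a type and less RNA per cell cannot be told apart in whole tissue.

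None of the 10 genes passed the test between OPA1_LKO and CTRL, but the genes did not all stand on the same side. Immt, Mtx2 and Chchd3 were lower in every OPA1_LKO library than in every CTRL library, at 0.77, 0.80 and 0.85 of the CTRL level, while Samm50 and the prohibitins were at or slightly above it. The edgeR quasi-likelihood test with Benjamini-Hochberg adjustment over 14036 genes called 0 of 10 members at an adjusted p under 0.05, where it called 6.03% of all genes tested. DESeq2 and limma-voom also called 0 of 10, where they called 1691 and 949 of the 14036 genes. By the unadjusted edgeR p, 2 of 10 were under 0.05, against 23.8% of all genes. The CPM of the groups did not overlap for 3 of 10 members, all lower in OPA1_LKO, against 16.4% of all genes in either direction. Read against these shares of all genes, the counts do not set the members apart. The median log2 fold change of the members was -0.15, beside -0.03 for all genes, and 3 of 10 were positive, beside 46.9% of all genes.

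**Figure D1:**
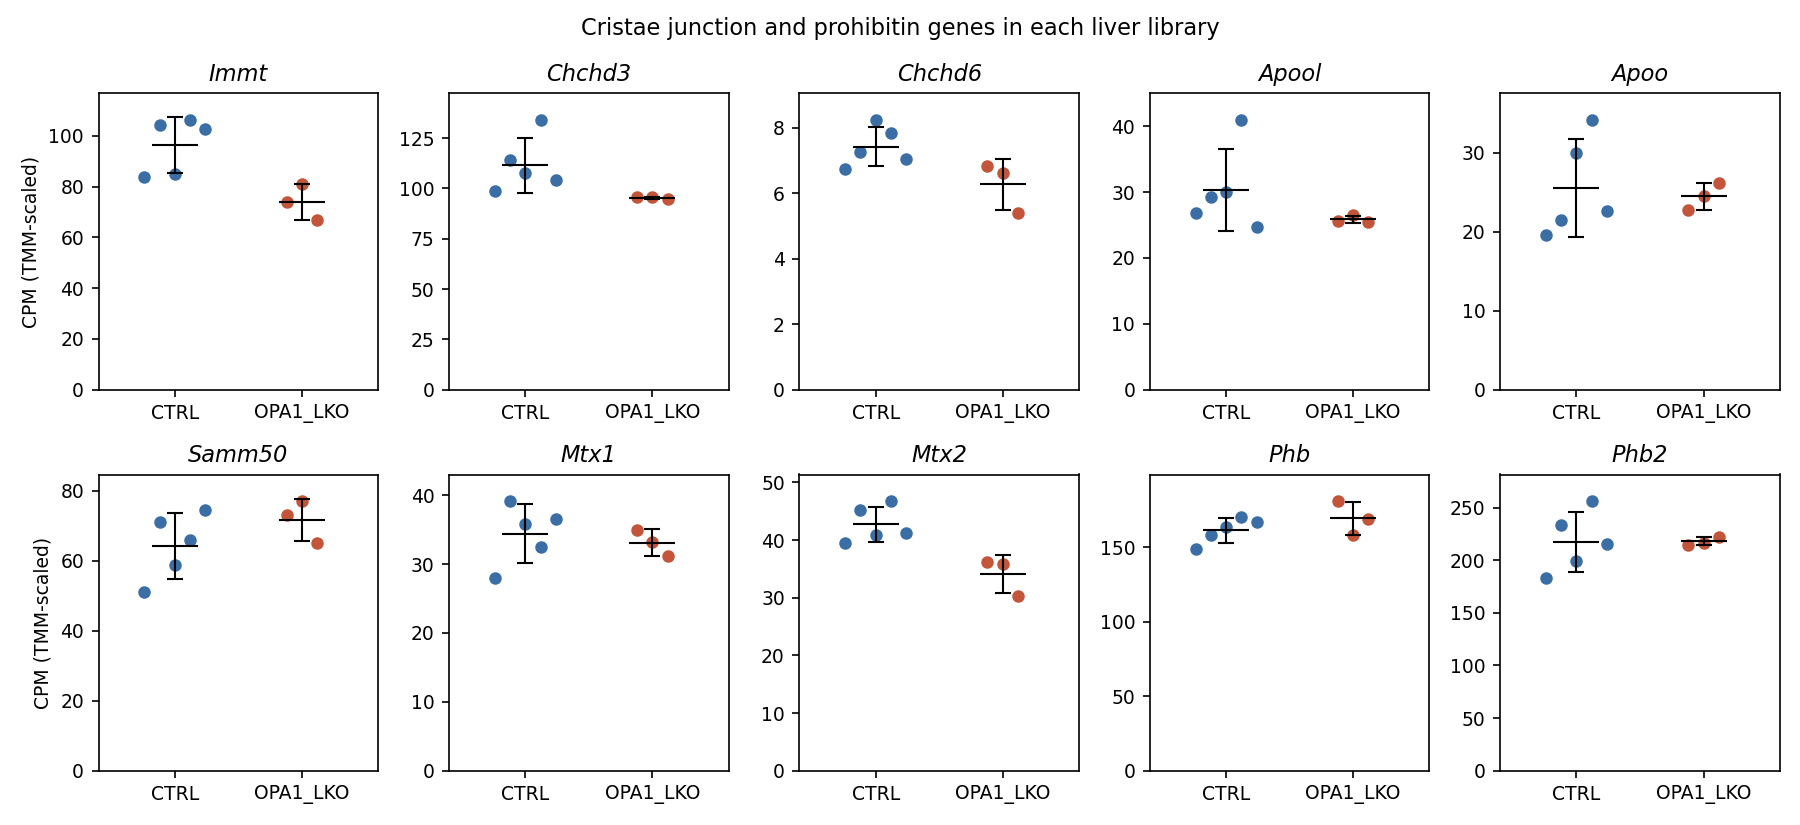
CPM (vertical axis, TMM-scaled, starting at 0) of each of the 10 genes in the 5 CTRL and 3 OPA1_LKO libraries, with 1 point per library and bars for the mean and SD. The groups do not overlap for Immt, Chchd3 and Mtx2, and overlap for the other 7.

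Immt, the core gene of MICOS, was at 84.0, 104, 84.9, 106 and 103 CPM in CTRL replicates 1 to 5, against 73.9, 81.1 and 66.9 CPM in OPA1_LKO replicates 1 to 3. The highest OPA1_LKO library lay just under CTRL replicates 1 and 3, which formed the low end of CTRL. The mean was 96.4 ± 11.0 CPM over the CTRL libraries (SD, n = 5), against 74.0 ± 7.10 CPM in OPA1_LKO (SD, n = 3), and the log2 difference of -0.38 ± 0.14 (SE) had a 95% confidence interval of -0.69 to -0.07. Its p by the edgeR quasi-likelihood test was 0.0215, or 0.136 after Benjamini-Hochberg adjustment. The adjusted p ranged from 0.0649 with DESeq2 to 0.604 over 16 other settings, so the gene passed in none of them. Each library gave Immt between 1131 and 1857 estimated reads.

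Chchd3, whose protein links mitofilin to SAMM50, was at 98.5, 114, 107, 134 and 104 CPM across CTRL, against 95.6, 95.5 and 94.6 CPM in OPA1_LKO. The OPA1_LKO values were nearly equal and lay just below CTRL replicate 1, so the separation was narrow. Its log2 difference was -0.23 ± 0.13 (SE), with a 95% interval of -0.53 to 0.07 and an adjusted p of 0.336 (edgeR, Benjamini-Hochberg). Chchd6, a paralogue of Chchd3 in the same subcomplex, was the least expressed member, with 91 to 148 estimated reads per library. It was at 6.74, 7.25, 8.22, 7.82 and 7.05 CPM across CTRL, against 6.83, 6.61 and 5.39 CPM in OPA1_LKO. OPA1_LKO replicate 1 lay above CTRL replicate 1 and the other OPA1_LKO libraries below all of CTRL. The log2 difference of Chchd6 was -0.24 ± 0.16 (SE), within an interval of -0.59 to 0.11.

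Apool and Apoo encode the apolipoprotein O family subunits of MICOS, which belong to the arm of the complex that bends the membrane. The protein of Apool is known to bind cardiolipin. Apool was at 26.8, 29.3, 30.0, 40.9 and 24.6 CPM across CTRL, against 25.6, 26.5 and 25.5 CPM in OPA1_LKO. Apoo was at 19.6, 21.5, 30.0, 34.1 and 22.6 CPM across CTRL, against 22.8, 24.5 and 26.2 CPM in OPA1_LKO. For both, CTRL replicate 4 was the highest library and the OPA1_LKO libraries lay inside the CTRL range. These were the most variable members in CTRL, where the SD was 20.7% of the mean for Apool and 24.2% for Apoo, against 5.18% for Phb. The log2 differences were -0.23 ± 0.17 for Apool and -0.06 ± 0.19 for Apoo (SE), with intervals of -0.60 to 0.14 and -0.48 to 0.36. The sign of Apoo turned with upper-quartile scaling, on the scale of TPM (levels corrected for transcript length), with a block for the replicate number and without CTRL replicate 3 or 4. Reads of Apoo are shared with its pseudogene Apoo-ps, which was given 0 to 39.8 estimated reads per library, so its level depends on how they were split.

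The outer membrane members differed among themselves. Samm50, the channel that inserts beta-barrel proteins and the outer anchor of the cristae junction, was at 51.0, 71.1, 58.8, 66.0 and 74.5 CPM across CTRL, against 73.0, 77.0 and 65.0 CPM in OPA1_LKO. Only OPA1_LKO replicate 2 was above all CTRL libraries. Its log2 difference was 0.16 ± 0.15 (SE), with an interval of -0.18 to 0.49 and an adjusted p of 0.560 (edgeR, Benjamini-Hochberg). Mtx2, a metaxin of the same complex, was at 39.5, 45.2, 40.9, 46.7 and 41.2 CPM across CTRL, against 36.2, 35.9 and 30.2 CPM in OPA1_LKO. All 3 OPA1_LKO libraries lay below CTRL, with OPA1_LKO replicate 3 the lowest. The mean of Mtx2 was 42.7 ± 3.09 CPM over the CTRL libraries (SD, n = 5), against 34.1 ± 3.34 CPM in OPA1_LKO (SD, n = 3). The log2 difference of Mtx2 was -0.32 ± 0.12 (SE), with an interval of -0.60 to -0.05, and its edgeR p of 0.0239 became 0.144 after Benjamini-Hochberg adjustment. Mtx1, its partner metaxin, was at 28.0, 39.1, 35.9, 32.4 and 36.5 CPM across CTRL, against 35.0, 33.2 and 31.2 CPM in OPA1_LKO, inside the CTRL range. Mtx1 differed by -0.05 ± 0.13 (SE), a sign that turned with upper-quartile scaling, on the TPM scale and without OPA1_LKO replicate 3.

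The prohibitin genes overlapped between the groups. Phb was at 149, 158, 164, 170.0 and 167 CPM across CTRL, against 181, 158 and 169 CPM in OPA1_LKO, where replicate 1 was above all of CTRL and the others inside its range. Its log2 difference was 0.07 ± 0.12 (SE), with an interval of -0.20 to 0.34. Phb2, which alternates with PHB in the ring and also serves as a mitophagy receptor, was at 183, 233, 199, 256 and 216 CPM across CTRL, against 215, 217 and 222 CPM in OPA1_LKO. The OPA1_LKO values sat near the middle of a wider CTRL range. Phb2 differed by 0.0031 ± 0.14 (SE), with an interval of -0.32 to 0.32, and turned slightly negative without CTRL replicate 1, 3 or 5.

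**Figure D2:**
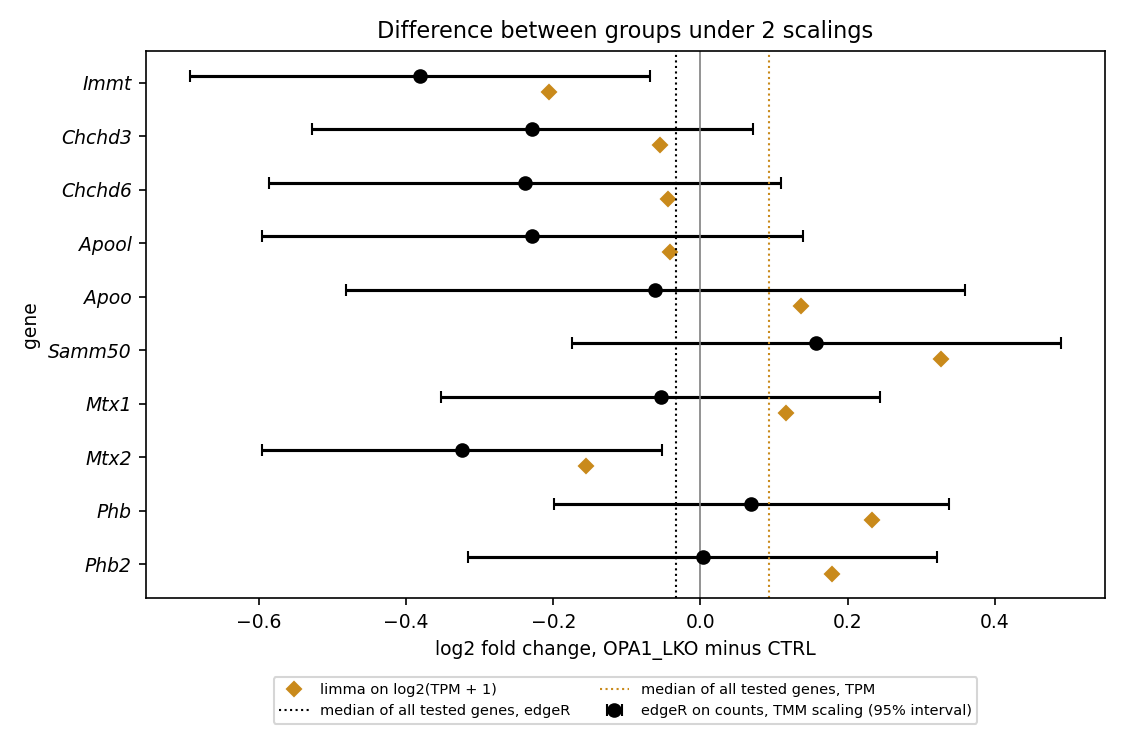
Log2 fold change of OPA1_LKO against CTRL for each gene (horizontal axis), from edgeR on counts with 95% intervals (black) and from limma on log2(TPM + 1) (diamonds), with dotted lines at the median of all genes on each scale. The order of the members is alike on both scales, while every diamond lies to the right of its black point.

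The scaling moved the members together. On the log2(TPM + 1) scale the median of all genes lay 0.13 higher than in the edgeR fit, at 0.09, and the members' median was 0.04. The TPM of the groups overlapped for every member, but the share of all genes that overlap in TPM was not computed. Immt, Mtx2, Chchd3, Chchd6 and Apool were below 0 in all 16 other settings and also below the median of all genes in each. The size was less steady than the sign: the log2 difference of Chchd3 ranged from -0.268 to -0.0550, that of Chchd6 from -0.305 to -0.0437 and that of Apool from -0.295 to -0.0416, each nearest 0 on the log2(TPM + 1) scale. Without CTRL replicate 4, Apool was at -0.0805 and Chchd3 at -0.138, and without OPA1_LKO replicate 3 Chchd6 was at -0.115. Immt ranged from -0.455 to -0.206 and Mtx2 from -0.370 to -0.156. Samm50 and Phb were above 0 and above that median in all 16. CTRL replicate 1 was the lowest library for 5 of 10 members in CPM and for 0 of 10 in TPM, and its TMM factor of 1.17 was the highest. CTRL replicate 4, with the lowest factor of 0.832, was the highest library for 6 of 10 members in CPM and 2 of 10 in TPM. Mitochondrially encoded transcripts took 26.4% of the reads in CTRL replicate 3, the highest share, and this library was the lowest in TPM for 4 of 10 members. Leaving those transcripts out before scaling, chosen after seeing the data, called 0 of 10 members, where it called 843 of 14058 genes.

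Per length, the members spanned a wide range of levels in CTRL. Phb2 led with 181 ± 25.4 TPM (SD, n = 5) and Phb followed with 100.1 ± 11.3 TPM, above Chchd3 at 88.2 ± 11.5 TPM. Samm50 at 43.2 ± 7.77, Immt at 40.9 ± 6.59 and Mtx2 at 39.6 ± 5.57 TPM formed a middle group, with Apoo at 33.0 ± 3.68 TPM below. Apool and Mtx1 were at 25.9 ± 4.11 and 25.6 ± 4.16 TPM, and Chchd6 was far below at 7.92 ± 0.600 TPM. Between neighbours in the order of all 8 libraries, the CTRL ranges were apart for Phb2 and Phb, for Chchd3 and Samm50 and for the last step down to Chchd6, and overlapped at every other step. In OPA1_LKO, Samm50 was at 54.2 ± 9.04 TPM (SD, n = 3), and Immt, Mtx2 and Apoo were at 35.3 ± 6.04, 35.5 ± 6.34 and 36.2 ± 1.88 TPM.

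A ratio of partner genes within a library is free of the scaling between libraries. Samm50 and Immt encode the outer and inner sides of one bridge, and their TPM ratio was 0.955, 1.09, 1.09, 0.991 and 1.15 in CTRL against 1.56, 1.51 and 1.53 in OPA1_LKO. The transcripts were thus at about equal levels in every CTRL library, and Samm50 exceeded Immt in every OPA1_LKO library. The mean ratio was 1.05 ± 0.0791 in CTRL (SD, n = 5) and 1.54 ± 0.0242 in OPA1_LKO (SD, n = 3), a log2 difference of 0.54. The exact two-sided permutation test gave p = 0.0357, the smallest that the 56 divisions of the libraries allow, and 0.0893 after Benjamini-Hochberg adjustment over 5 pairs. Without any 1 library the difference stayed between 0.51 and 0.58. Since the ratio uses the same values as the fold changes of Immt and Samm50, it is not a second measurement. Like all lists here, the pairs were chosen with earlier results of these data known.

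The metaxin ratio also separated the groups. The share of all gene pairs whose ratio separates them was not computed, so these separations cannot be read as rare or common. Mtx2 over Mtx1 was 1.76, 1.43, 1.41, 1.79 and 1.40 in CTRL and 1.28, 1.34 and 1.20 in OPA1_LKO, all 3 below the lowest CTRL library by a small margin. Its log2 difference was -0.28, with an exact permutation p of 0.0357 and an adjusted p of 0.0893, and -0.32 to -0.23 without any 1 library. The other pairs kept closer to CTRL. Apoo over Apool was 1.29 ± 0.181 in CTRL (SD, n = 5) and 1.46 ± 0.114 in OPA1_LKO (SD, n = 3), with an exact permutation p of 0.214 and an adjusted p of 0.357. Phb2 over Phb was 1.81 ± 0.186 and 1.74 ± 0.127, and Chchd3 over Chchd6 was 11.2 ± 1.32 and 11.1 ± 1.36, with adjusted exact permutation p of 0.714 and 1.

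**Figure D3:**
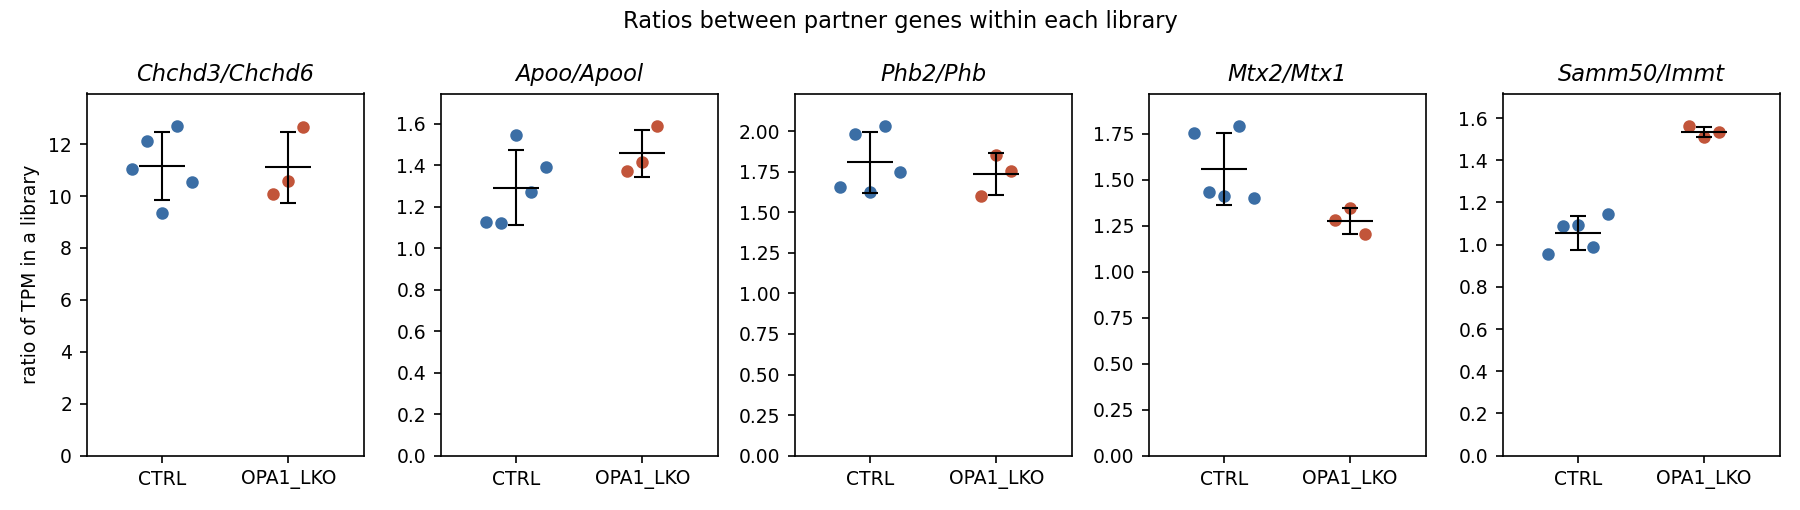
Ratio of TPM of 2 partner genes in each library (vertical axis, starting at 0), for 5 pairs, with 1 point per library and bars for the mean and SD. Samm50 over Immt lies between 1.51 and 1.56 in OPA1_LKO and at or below 1.15 in CTRL, and Mtx2 over Mtx1 is lower in OPA1_LKO by a narrow gap.

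Promoter pieces are shown for Immt, Chchd3 and Mtx2, whose CPM separated the groups, and for Samm50, whose ratio to Immt did. The sequences are from RefSeq on GRCm38.p6, each on the strand of its gene, and capitals mark the letters CCGGAAG, known from sites of ETS factors, and CCAAT, the CCAAT box. The Immt piece, 30 bases cut around its CCGGAAG letters, is chr6:71831189-71831218 (plus strand), 131 to 102 bases before the promoter start at 71831320. The RefSeq span of Immt begins earlier, at 71831091, so this piece lies inside that span. The Chchd3 piece is chr6:33060274-33060423 (minus strand), 163 to 14 bases before its start. For Mtx2 the piece is chr2:74825653-74825802 (plus strand), 159 to 10 bases before the start, and for Samm50 it is chr15:84192090-84192239 (plus strand), 150 to 1 bases before it.
Immt: cccaagcgcgacCCGGAAGgagaacctgcc
Chchd3: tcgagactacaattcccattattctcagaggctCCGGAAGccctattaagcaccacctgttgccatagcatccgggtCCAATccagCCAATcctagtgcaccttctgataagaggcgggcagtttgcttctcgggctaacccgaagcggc
Mtx2: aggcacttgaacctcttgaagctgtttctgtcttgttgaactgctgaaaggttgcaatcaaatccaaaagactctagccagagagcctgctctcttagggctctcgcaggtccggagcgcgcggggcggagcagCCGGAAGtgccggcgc
Samm50: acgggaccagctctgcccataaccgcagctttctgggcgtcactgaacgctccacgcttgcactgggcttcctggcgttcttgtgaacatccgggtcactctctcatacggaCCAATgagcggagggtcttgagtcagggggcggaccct

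All 10 members had a promoter in the RefSeq table, and the 250 bases before the start were searched on both strands for 4 motifs, of which none holds another. CCGGAAG was found for 5 of 10 members, Immt, Chchd3, Mtx1, Mtx2 and Phb2. That is 5 of the members' 11 promoters, beside 6.91% of all 32851 promoters, of genes expressed or not. Of the windows with CCGGAAG, those of Mtx1 and Mtx2 overlap exons of their own gene. The Phb2 window overlaps an exon of Emg1, and the Immt window an exon of Gm44771. CCAAT was found for 6 of 10, Immt, Chchd3, Chchd6, Apool, Samm50 and Phb. That is 6 of the members' 11 promoters, beside 33.8% of all promoters. The letters GCGCANGCG, known from NRF1 sites, and TGATGNAA, from composite ATF4 sites, were found for 0 of 10 members and in 5.16% and 3.45% of all promoters. Immt, Chchd3 and Mtx2 held CCGGAAG in common, as did Mtx1 and Phb2, whose levels overlapped between the groups, and Samm50 did not hold it. Immt, Chchd3, Chchd6 and Phb2 lie on chromosome 6, Apool and Apoo on the X chromosome, and Samm50, Mtx1, Mtx2 and Phb on chromosomes 15, 3, 2 and 11. On the other strand, gene models of GENCODE overlap Immt (Gm44771 and the pseudogene Gm17825), Chchd3 (Gm14540), Mtx1 (Thbs3 and Gm43737), Phb2 (Gm15884) and Apoo (Gm44477). On the same strand, Gm49513 overlaps Samm50 and the pseudogene Gm14425 overlaps Mtx2, among others. The library kit keeps the strand, but the strand setting of the counting is not given in the sources used here, so the part of such reads in the levels was not tested.

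Isoforms were compared in the transcript tables. The edgeR test with Benjamini-Hochberg adjustment called 0 of the 22 tested among the 37 listed transcripts of the members, and 0.0569% of all 26349 transcripts. By the unadjusted p, 2 of these 22 were under 0.05. They were the leading Immt transcript NM_001253688.1, at -0.32 ± 0.10 (SE, adjusted p = 0.333), and the single Mtx2 transcript NM_016804.4, at -0.30 ± 0.11 (SE, adjusted p = 0.450). The share of all transcripts under that unadjusted p was not computed, so this count cannot be read as high or low. Samm50, Phb and Mtx2 had a single transcript each, and 1 transcript carried nearly all of Phb2, Apool, Apoo and Mtx1.

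Within Immt, Chchd3 and Chchd6 the shares of 7 transcripts in the TPM of their gene were compared by exact two-sided permutation tests, and 0 of 7 had an unadjusted p under 0.05. NM_001253688.1 made up 73.6% ± 8.38 of Immt in CTRL (SD, n = 5) and 75.6% ± 9.90 in OPA1_LKO (SD, n = 3), and NM_001253687.1 18.1% ± 5.80 and 17.6% ± 9.10. NM_025336.1 made up 88.3% ± 4.91 of Chchd3 in CTRL and 89.4% ± 3.50 in OPA1_LKO. In Chchd6 the predicted transcript XM_017321711.1 was listed at 0 in CTRL replicates 1, 2 and 4 and took 31.9% and 24.8% of the gene in CTRL replicates 3 and 5, against 20.02%, 21.5% and 33.4% in OPA1_LKO. It was thus seen in every OPA1_LKO library and in part of CTRL, at no more than 2.45 TPM, and its exact permutation p was 0.286. The remainder of Chchd6 was mostly NM_025351.3, at 82.2% ± 16.3 in CTRL and 69.1% ± 3.63 in OPA1_LKO.

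**Figure D4:**
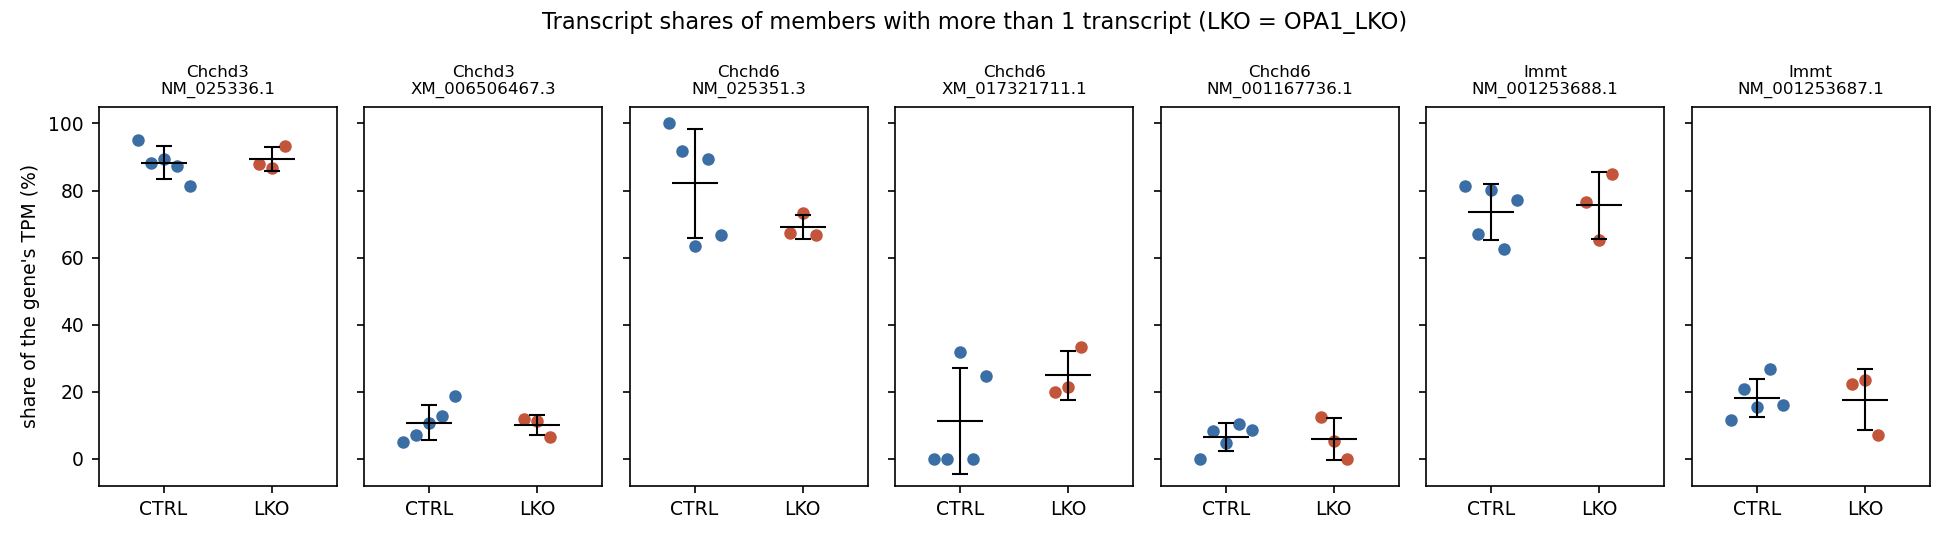
Share of each transcript in the TPM of its gene (vertical axis, percent) for the 7 compared transcripts of Chchd3, Chchd6 and Immt, with 1 point per library and bars for the mean and SD. The groups overlap for all 7, and XM_017321711.1 is at 0 in 3 CTRL libraries.

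The pattern over the 8 libraries was compared by the root mean square difference of log2 CPM, each gene centred on its own mean. Among the members, Immt and Mtx2 were most alike, at 0.0863, followed by Chchd3 and Apool at 0.0976 and by Chchd6 and Mtx2 at 0.0987. Phb and Phb2 were nearest to each other at 0.118, and Samm50 was nearest to Mtx1 at 0.146. The largest distances were those of Immt from Apoo at 0.314 and of Samm50 from Apool at 0.310. Among 1784 genes with a mean level within 2-fold of Immt, the nearest to Immt were Pafah1b1, a regulator of dynein, at 0.0354, Pomp, a proteasome assembly factor, at 0.0580, and Pdcd6ip, an ESCRT adaptor, at 0.0592. Chchd3 was in place 157 of these genes, and Samm50 in place 904. Mtx2, the member most like Immt, had a mean of 39.5 CPM, outside this range of levels, and was not ranked.

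The other genes of these systems were read from a list of 19, all of them tested. The edgeR test called 0 of 19, DESeq2 called Oma1 and Opa1, and limma-voom called Opa1. Of all 14036 genes, these methods called 846, 1691 and 949 in that order. By the unadjusted edgeR p, 5 of 19 were under 0.05, against the 23.8% of all genes given above. The list had a median log2 fold change of -0.12, with 6 of 19 positive. Of the remaining MICOS subunits, Micos10 (listed as Minos1), which bends the membrane at the junction, was at 78.0 ± 6.24 CPM over the CTRL libraries (SD, n = 5), against 79.9 ± 7.95 CPM in OPA1_LKO (SD, n = 3). Micos13 (listed as 2410015M20Rik), which joins the arms of the complex, was at 83.5 ± 26.0 and 71.1 ± 22.6 CPM.

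The 5 partners with p under 0.05 differed in both directions, Opa1 among the lower ones. The log2 difference of Opa1 was -0.63 ± 0.17 (SE), at 0.65 of the CTRL level. Its adjusted edgeR p with Benjamini-Hochberg was 0.0539, so the deleted gene itself missed the threshold. Oma1, the stress-activated inner membrane protease, was at 11.3 ± 2.33 CPM over the CTRL libraries (SD, n = 5), against 7.04 ± 0.512 CPM in OPA1_LKO (SD, n = 3) with no overlap, and its adjusted edgeR p with Benjamini-Hochberg was 0.0641. Chchd2, a twin cysteine motif protein of the intermembrane space that associates with MICOS, was at 457, 623, 626, 735 and 663 CPM across CTRL, against 454, 488 and 421 CPM in OPA1_LKO. CTRL replicate 1 lay within the OPA1_LKO range. Its log2 difference was -0.45 ± 0.17 (SE), with an adjusted p of 0.154, and it passed without CTRL replicate 1. Chchd10, its paralogue, was at 827, 797, 854, 727 and 746 CPM across CTRL, against 1285, 740.4 and 1184 CPM in OPA1_LKO. Atad3a, an AAA ATPase that spans the membranes near the junctions, was at 62.1, 64.7, 72.9, 68.0 and 68.3 CPM across CTRL, against 106, 66.7 and 106 CPM in OPA1_LKO. For both, OPA1_LKO replicates 1 and 3 were above all of CTRL and OPA1_LKO replicate 2 was inside its range. The log2 differences were 0.44 ± 0.19 for Chchd10 and 0.46 ± 0.16 for Atad3a (SE), with adjusted p of 0.196 and 0.123 (edgeR, Benjamini-Hochberg), and Atad3a passed without OPA1_LKO replicate 2.

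**Figure D5:**
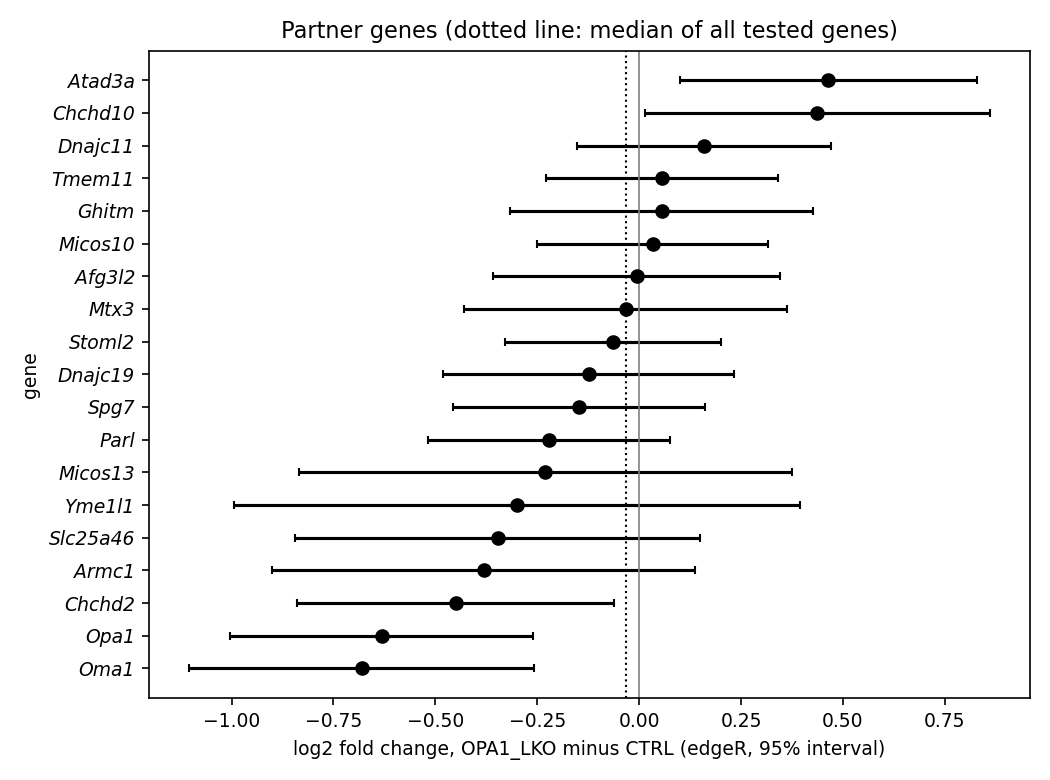
Log2 fold change of OPA1_LKO against CTRL with 95% intervals (horizontal axis, edgeR) for the 19 partner genes, ordered by size, with a dotted line at the median of all genes. The intervals of Oma1, Opa1 and Chchd2 lie below 0, those of Atad3a and Chchd10 lie above it, and the other 14 span it.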

How the data were processed

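Liver RNA was compared between 5 CTRL and 3 OPA1_LKO libraries, grouped by the genotype label. Alignment and quantification used build mm10 with STAR and RSEM among the tools, per the submitters' processing notes, which also list MultiQC and StringTie and give no version. The annotation release was not stated. The authors deposited RSEM expected counts per gene and per transcript, not normalised, and the authors' deposited TPM, corrected for length and with 1 common sum per library. RSEM splits reads that fit several genes by estimation.

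The expected counts were rounded. Genes were kept by filterByExpr with its defaults (at least 10 counts per typical library, 15 overall), a filter that all 10 members passed, scaled with TMM factors and tested with the quasi-likelihood test of edgeR 4.0.16 (R 4.3.3) with no covariate. Transcripts were tested the same way. The p-values were adjusted by Benjamini-Hochberg over all features tested and called at 0.05. DESeq2 1.42.0, limma 3.58.1, other scaling, filters and pseudocounts (1 and 0.1), a replicate block and leaving out each library were the alternatives. Standard errors come from the fold change and the F statistic. Intervals cover the spread between libraries.

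The named genes were all 10 members, Opa1 and the 4 other partners with the smallest p, and the 3 genes most like Immt, to which Micos10 and Micos13 were added after their values were seen. The members and all lists were chosen with earlier results of these data known. The procedure was tested on simulated counts. No 2 libraries held identical values.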

Additional observations from a re-analysis of the deposited data

How the results depend on the processing

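No member was called in any of the 16 alternatives. The count of all genes called was 846 (469 higher and 377 lower) and became 1691 with DESeq2, 560 (447 and 113) with log2(TPM + 0.1), and 198 to 1701 without any 1 library, lowest without OPA1_LKO replicate 1 and highest without CTRL replicate 1. It was 504 higher and 107 lower with log2(TPM + 1) and 547 and 270 with upper-quartile factors. The partner count became 2 with DESeq2, 1 with limma-voom and 0 to 3 without any 1 library, with Chchd2, Oma1 and Opa1 called without CTRL replicate 1. The members' median became 0.0375 with log2(TPM + 1) and 0.0390 with log2(TPM + 0.1), scales on which the median of all genes lay 0.13 and 0.18 higher.

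Same-numbered libraries correlated at 0.0720, 0.0537 and 0.175 in their deviations from the group means. Because not every one exceeded 0.1, the numbers were not taken as pairs, although 2 of the 3 OPA1_LKO libraries (replicates 1 and 3) correlated best with their own number. With the replicate block 367 genes were called, 0 of them members, Apoo stood at 0.0690 and the Chchd3 transcript XM_006506467.3 at 0.263.

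Some signs turned. Apoo became 0.0269 with upper-quartile factors, 0.136 and 0.140 on the TPM scales, and spanned -0.142 to 0.0808 without any 1 library. Mtx1 became 0.0328, 0.117 and 0.121 in the same scalings and spanned -0.118 to 0.0133, and Phb2 spanned -0.0502 to 0.0859. The Chchd3 to Chchd6 log2 ratio difference was 0.0241 with expected counts and spanned -0.102 to 0.0618, and that of Phb2 to Phb spanned -0.103 to 0.0016. The transcript log2 differences spanned -0.499 to 0.394 for NM_001167736.1 and -0.715 to 0.0586 for NM_001253687.1. Share differences, in percentage points, spanned -3.46 to 4.72 for NM_001253687.1, -3.79 to 2.48 for NM_001167736.1, -2.72 to 7.14 for NM_001253688.1, -0.811 to 2.88 for NM_025336.1 and -2.32 to 1.11 for XM_006506467.3. The cause was not tested.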

Other observations

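As a share of the summed TPM of the 10 members in each library, a measure chosen after the data were seen, Immt made up 6.97% ± 0.440 in CTRL (SD, n = 5) and 5.60% ± 0.454 in OPA1_LKO (SD, n = 3). Mtx2 made up 6.75% ± 0.297 and 5.63% ± 0.472, and Chchd3 15.1% ± 0.682 and 13.5% ± 0.178. The groups did not overlap for these 3 members, each with an exact permutation p of 0.0357, the smallest possible, and 0.119 after Benjamini-Hochberg adjustment over 10 members. They are the members whose CPM separated the groups, and the shares come from the same libraries, so this is not a second measurement. No such shares were computed for other sets of genes, so the count of 3 cannot be read as high or low. Samm50 made up 7.36% ± 0.838 in CTRL and 8.60% ± 0.629 in OPA1_LKO, with an adjusted exact permutation p of 0.179, and Phb2 took the largest share, 30.8% ± 1.19 and 32.5% ± 0.914. The shares of the members sum to a fixed total, so a lower share of some raises the others.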
